A study of Arabidopsis thaliana with 12 samples.

Results

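The 76 probe sets described here, each for a different gene, have a large difference in signal between 23C and 16C in pft1-1 seedlings and a small one in wild type (WT). They were chosen from 13513 probe sets with 1 annotated gene, which name 13356 genes, among 22746 on the array that are not controls. A member had a mean difference, 23C minus 16C, of at least 1.5 log2 units in pft1-1, with the 3 arrays of each temperature not overlapping (as in 47.9% of all probe sets), and a WT mean difference under 0.5 in absolute size. The 39 members higher at 23C in pft1-1 are called rises and the 37 lower at 23C are called falls. These values chose the members, so temperature differences are given as a description, and calls on them are counted without being read as support.

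The study grew Arabidopsis thaliana of the Columbia background on MS agar in continuous cool-white light at 80 micromoles per second and square metre, and took whole seedlings aged 10 days. The 4 groups were pft1-1 mutants at 23C, pft1-1 mutants at 16C, WT at 23C and WT at 16C, with 3 biological replicates each, lettered A, B and C in the titles. RNA was prepared separately for every sample and hybridised to 1 array. The mutant is represented by a single allele, and all groups are bulk seedling RNA, in which fewer cells of a type and less RNA per cell cannot be told apart. A level is the log2 RMA signal of 1 probe set, so levels of different probe sets are not compared. Precision is limited by the 3 arrays in each group. Levels of 1 gene are listed for replicates A, B and C in that order.

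PFT1 is the MED25 subunit of Mediator, the large complex that links DNA-bound transcription factors to RNA polymerase II. In Arabidopsis this subunit is known for roles in flowering and in jasmonate responses. Growth temperature changes the expression of many plant genes, among them genes of cold acclimation, elongation growth and pigment synthesis. Only 5 of the rises and 12 of the falls carry a symbol other than their locus number in the annotation, and a role is given only where a name allows it.

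Across the series the arrays of letter C stood apart. Their 27 spike control probe sets averaged 4.57 to 8.72 log2 units, against 2.45 to 2.54 on the other 8 arrays. The 3′ minus 5′ difference of the control transcripts, a measure of RNA or labelling quality, was 3.52 to 4.53 on letter C arrays and 2.64 to 3.07 elsewhere. In pft1-1 it was higher at 23C than at 16C by 1.01 within letter C, 0.17 within letter A and 0.03 within letter B. In WT the same differences were 0.25, -0.06 and -0.30. Their part in the results was not tested.

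The size of the group depends on the WT limit. In all 747 single-gene probe sets passed the pft1-1 part of the rule, 283 rises (2.09% of the single-gene probe sets) and 464 falls (3.43%). In 671 of these 747 the WT mean moved by at least 0.5 the same way, and in 0 it moved by that much the opposite way, which leaves the 76 members (10.2% of the 747). The non-members among the rises had a median difference of 2.01 in pft1-1 and 1.18 in WT, and the non-members among the falls had medians of -2.25 in pft1-1 and -1.63 in WT. With the genotypes exchanged, the same rule found 6 probe sets, 6 rises and 0 falls, out of 358 that passed its WT part (1.68%).

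**Figure D1:**
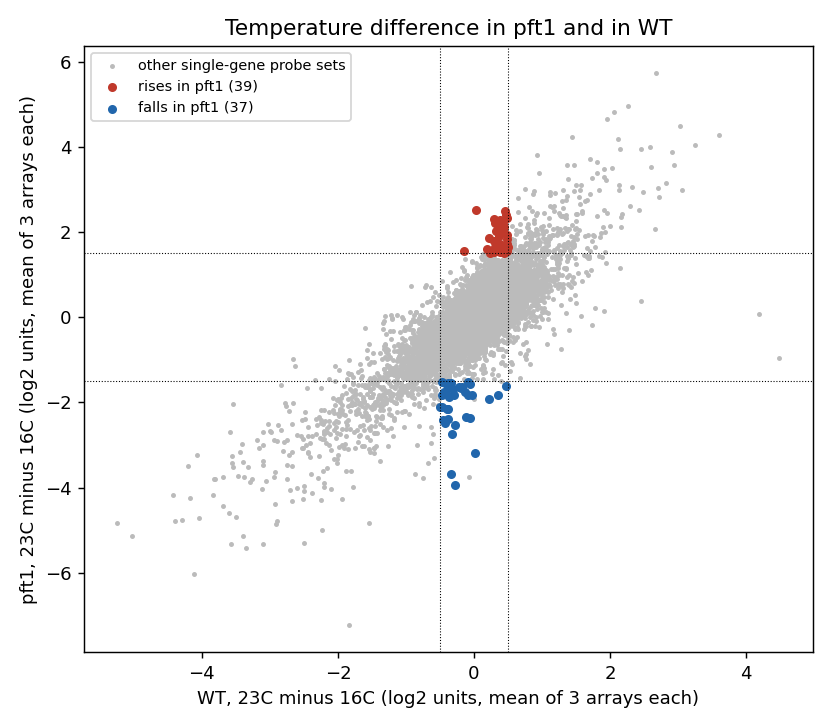
Each point is 1 single-gene probe set, with the WT difference between 23C and 16C (log2 units) on one axis and the pft1-1 difference on the other, and the members coloured by direction. The rises lie between 1.5 and 2.51 in pft1-1 and the falls between -3.94 and -1.51, in a band of WT differences under 0.5 in size that adjoins the many probe sets with a WT difference of the same sign.

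The rises had a median difference of 1.71 log2 units in pft1-1 (range 1.5 to 2.51), beside a median of 0.04 over all probe sets. In WT their median was 0.39 (range -0.15 to 0.50), beside 0.02 over all probe sets. Of the 39 rises, 38 were also higher at 23C in WT on average, 19 by at least 0.4, and 3 had a WT difference under 0.2 in size. The falls had a median of -1.82 in pft1-1 (range -3.94 to -1.51) and -0.32 in WT (range -0.50 to 0.47). Of the 37 falls, 33 were also lower at 23C in WT, 12 members had a WT difference of at least 0.4 in size, and 10 had one under 0.2. Most members therefore had a WT mean difference of the same sign as in pft1-1, and many lay close to the WT limit.

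In the limma fit of all 12 arrays, the pft1-1 difference was called (adjusted p under 0.05) for 31 rises, with a background of 8.41% of all probe sets called higher, and for 31 falls, with 9.27% called lower (17.7% in either direction). The WT difference was called for 0 members, with 4.89% of all probe sets called (1112, and 1859 with the replicate block). The rule chose on these same differences, so both counts were largely fixed by the choice and nothing is read from them. The difference of the differences, pft1-1 minus WT, had a median of 1.40 over the rises (range 1.07 to 2.48) and -1.64 over the falls (range -3.67 to -1.05). It was called by limma for 0 members and for 0 of the 22746 probe sets (0%). At an unadjusted p under 0.05 it passed for 50 members, with 5.54% of all probe sets passing, a count that the rule favours. With the replicate letters as a block, a fit added after seeing the data, it was again called for 0 probe sets. Leaving out single arrays gave 0 to 6 calls, 3 of the 6 without pft1-1 replicate A at 16C being members (AT4G16230, AT1G49570 and TBL15). The rule chose on this difference and the 3 genes were low outside pft1-1 at 16C, so these calls are not read as support.

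The rises include the gene of lysine-ketoglutarate reductase/saccharopine dehydrogenase (AT4G33150, LKR/SDH), the enzyme of the first steps of lysine breakdown. Its levels were 8.65, 7.95 and 10.06 in pft1-1 at 23C and 6.07, 6.43 and 6.66 in pft1-1 at 16C, against 8.56, 6.81 and 6.29 in WT at 23C and 6.88, 6.34 and 7.08 in WT at 16C. The highest pft1-1 value was replicate C at 23C, and WT replicate A at 23C lay within the pft1-1 values at that temperature. The difference was 2.50 in pft1-1 and 0.45 in WT. MCCB, a subunit of 3-methylcrotonyl-CoA carboxylase in leucine breakdown, had 9.71, 8.70 and 10.65 in pft1-1 at 23C and 8.03, 8.10 and 8.20 in pft1-1 at 16C, against 9.50, 8.32 and 8.24 in WT at 23C and 7.95, 8.19 and 8.51 in WT at 16C. At 16C the 6 seedling samples of both genotypes lay close together, and the largest pft1-1 value was again replicate C at 23C. MCCB and the further members named for a known role, outside the largest changes, were picked after their values were seen.

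AKINBETA1 encodes a regulatory beta subunit of the energy-sensing kinase SnRK1. Its levels were 9.19, 8.52 and 10.09 in pft1-1 at 23C and 6.75, 7.54 and 6.93 in pft1-1 at 16C, against 9.49, 7.75 and 7.47 in WT at 23C and 8.43, 7.44 and 7.56 in WT at 16C. The WT array of replicate A at 23C exceeded pft1-1 replicates A and B at 23C, while pft1-1 replicates A and C at 16C lay under all WT arrays. The difference was 2.19 in pft1-1 and 0.43 in WT. WES1, also called GH3.5, joins amino acids to auxin and salicylic acid. It had 9.02, 8.76 and 8.59 in pft1-1 at 23C and 6.49, 6.91 and 6.72 in pft1-1 at 16C, against 8.32, 8.03 and 7.05 in WT at 23C and 7.96, 7.48 and 6.89 in WT at 16C. Every pft1-1 array at 23C exceeded the WT arrays, and those at 16C lay lowest except that replicate B was slightly above WT replicate C at 16C.

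Of the other named rises, Fes1C is related to the Fes1 nucleotide exchange factors of HSP70 chaperones known from yeast. Its group means were 7.40 ± 0.32 in pft1-1 at 23C, 5.69 ± 0.42 in pft1-1 at 16C, 6.74 ± 0.41 in WT at 23C and 6.26 ± 0.32 in WT at 16C (SD, n = 3 each). WLIM2b, an actin-binding LIM domain protein, had means of 11.94 ± 0.28 in pft1-1 at 23C, 10.38 ± 0.26 in pft1-1 at 16C, 11.12 ± 0.44 in WT at 23C and 10.65 ± 0.21 in WT at 16C (SD, n = 3 each). Both had a pft1-1 mean above WT at 23C and below WT at 16C.

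AT2G07722 had the largest difference among the rises. Its levels were 7.11, 5.64 and 6.84 in pft1-1 at 23C and 3.80, 4.64 and 3.61 in pft1-1 at 16C, against 6.99, 5.81 and 5.21 in WT at 23C and 5.98, 6.01 and 5.93 in WT at 16C. The WT arrays at 16C were nearly identical, whereas those at 23C spread on both sides of them, so that the WT mean difference of 0.03 averages differences of 1.01 for letter A, -0.20 for letter B and -0.72 for letter C. Its probe set, like those of AT2G14650, AT4G10580 and AT2G07741, is of an s or x type, which can bind transcripts of several related genes, so the gene behind the signal is uncertain. The annotation lists AT2G14650 and AT4G10580 as pseudogenes. These 4 rises had the lowest pft1-1 minus WT differences at 16C among the 39, between -1.96 and -1.44. In all 5 members (6.58%) had such a type, beside 2.09% of the single-gene probe sets.

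The remaining rises among the 12 largest carry only locus numbers. Their pft1-1 differences were 2.39 for AT4G05070, 2.34 for AT1G05340, 2.30 for AT4G39675, 2.29 for AT2G21820, 2.21 for AT2G14650, 2.11 for AT3G60300, 2.1 for AT1G26665 and 2.07 for AT4G09830. Their WT differences lay between 0.30 (AT4G39675) and 0.49 (AT1G05340). AT4G39675 had 7.10, 4.88 and 7.41 in pft1-1 at 23C and 4.34, 4.09 and 4.06 in pft1-1 at 16C, against 7.64, 4.30 and 2.97 in WT at 23C and 6.09, 3.74 and 4.17 in WT at 16C, a small WT mean difference with a wide spread in WT. AT3G60300 varied less in WT, with 9.50, 9.11 and 10.01 in pft1-1 at 23C and 7.28, 7.62 and 7.38 in pft1-1 at 16C, against 8.99, 8.69 and 8.32 in WT at 23C and 8.23, 8.23 and 8.23 in WT at 16C. Here every pft1-1 array at 23C was above, and every one at 16C below, all WT arrays.

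**Figure D2:**
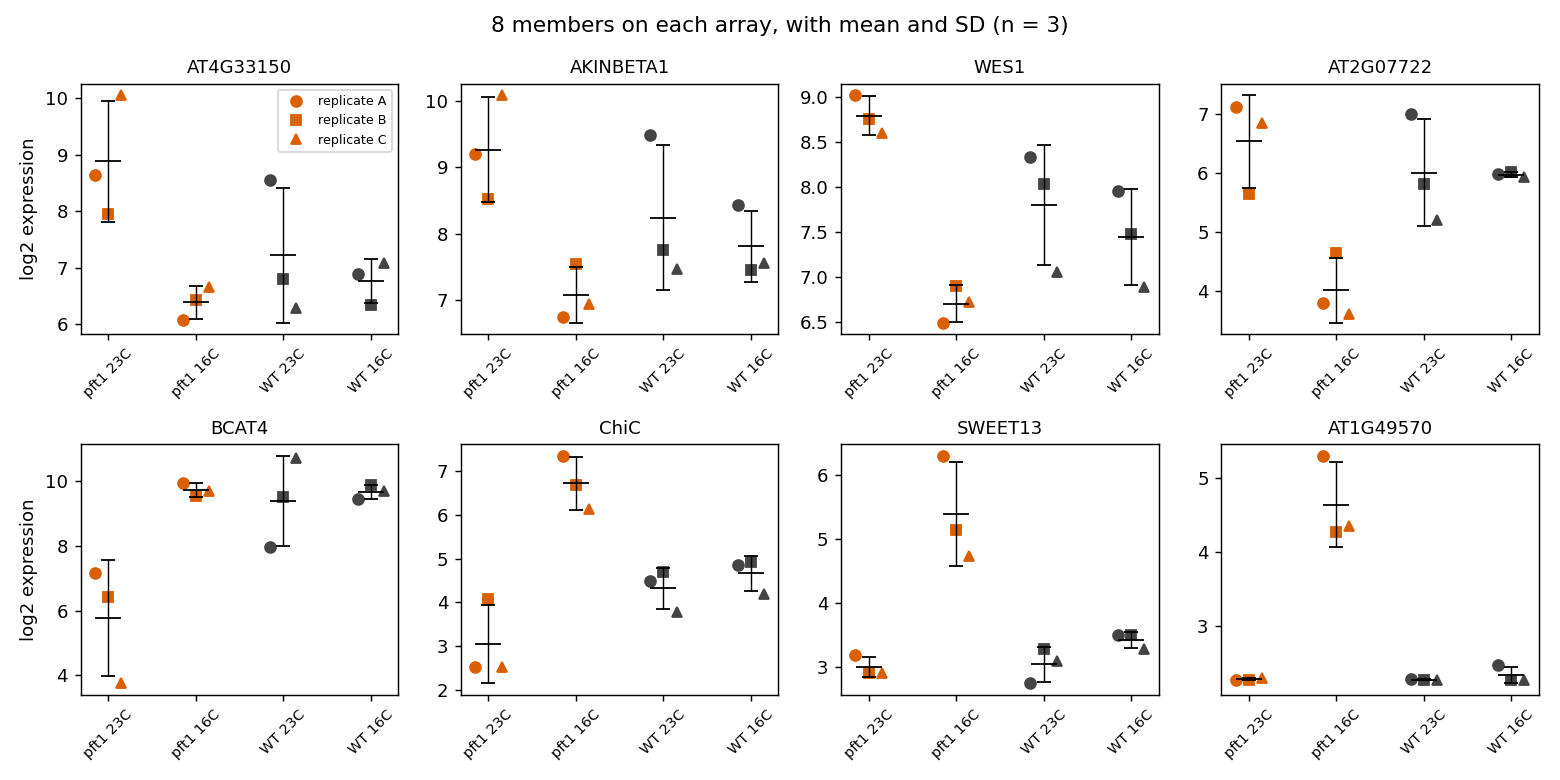
Levels (log2 units) of selected rises and falls on each of the 12 arrays, with 1 symbol an array, shaped by replicate letter, and black bars for the mean and SD of each group (n = 3). The pft1-1 symbols at 23C and 16C do not overlap in any panel, and WT replicate A at 23C is the WT array nearest to pft1-1 at 23C for AKINBETA1 and BCAT4.

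The largest fall was BCAT4, the aminotransferase that opens the chain elongation of methionine for aliphatic glucosinolates, defence compounds of the cabbage family. Its levels were 7.15, 6.41 and 3.75 in pft1-1 at 23C and 9.94, 9.52 and 9.69 in pft1-1 at 16C, against 7.95, 9.51 and 10.72 in WT at 23C and 9.43, 9.87 and 9.69 in WT at 16C. At 16C both genotypes had about the same level, and at 23C all pft1-1 arrays were below all WT arrays. The pft1-1 difference of -3.94 joins -5.93 for letter C with -2.79 for letter A and -3.11 for letter B. The WT difference of -0.27 joins 1.03, -1.48 and -0.36 for the same letters.

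ChiC, a class V chitinase, had 2.53, 4.08 and 2.52 in pft1-1 at 23C and 7.35, 6.69 and 6.13 in pft1-1 at 16C, against 4.49, 4.68 and 3.79 in WT at 23C and 4.86, 4.93 and 4.19 in WT at 16C. All WT arrays lay under all pft1-1 arrays at 16C, and among the arrays at 23C only pft1-1 replicate B reached into the WT range. The difference was -3.68 in pft1-1 and -0.34 in WT. SWEET13, a sucrose transporter of the plasma membrane, had 3.19, 2.92 and 2.91 in pft1-1 at 23C and 6.30, 5.14 and 4.74 in pft1-1 at 16C, against 2.75, 3.28 and 3.10 in WT at 23C and 3.51, 3.50 and 3.28 in WT at 16C. Outside pft1-1 at 16C the levels ran between 2.75 and 3.51, under all 3 arrays of that group.

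A pattern like that of SWEET13 was clearest in AT1G49570, AT4G16230 and TBL15, the last from the trichome birefringence-like family of cell wall polysaccharide acetylation. AT1G49570 had 2.28, 2.27 and 2.30 in pft1-1 at 23C and 5.30, 4.27 and 4.35 in pft1-1 at 16C, against 2.28, 2.27 and 2.28 in WT at 23C and 2.47, 2.28 and 2.27 in WT at 16C. AT4G16230 had 2.43, 2.40 and 2.44 in pft1-1 at 23C and 3.92, 5.17 and 5.23 in pft1-1 at 16C, against 2.41, 2.42 and 2.51 in WT at 23C and 2.40, 2.61 and 2.68 in WT at 16C. For TBL15 the levels were 2.13, 2.12 and 2.15 in pft1-1 at 23C and 3.24, 4.48 and 4.13 in pft1-1 at 16C, against 2.13, 2.13 and 2.13 in WT at 23C and 2.23, 2.14 and 2.13 in WT at 16C. In each, the 9 arrays outside pft1-1 at 16C were nearly flat and close to the lower quartile of all values, 2.52, or under it, where a probe set may only record background. AT2G41480, annotated as the class III peroxidase PRX25, had means of 3.37 ± 0.44 in pft1-1 at 23C, 5.19 ± 0.64 in pft1-1 at 16C, 3.22 ± 0.22 in WT at 23C and 3.69 ± 0.38 in WT at 16C (SD, n = 3 each). The pft1-1 mean at 16C was again the highest.

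EXLB1, an expansin-like protein, had the opposite arrangement, with 2.63, 2.12 and 2.06 in pft1-1 at 23C and 4.87, 4.56 and 2.87 in pft1-1 at 16C, against 3.11, 5.49 and 6.17 in WT at 23C and 4.81, 4.52 and 4.39 in WT at 16C. Its pft1-1 arrays at 23C were the lowest of all, while pft1-1 replicate C at 16C was also below every WT array. Group means of APS3, an ATP sulfurylase of sulfate assimilation, were 6.07 ± 0.78 in pft1-1 at 23C, 7.69 ± 0.10 in pft1-1 at 16C, 7.47 ± 0.84 in WT at 23C and 7.0 ± 0.19 in WT at 16C (SD, n = 3 each). TAAC, the thylakoid ATP/ADP carrier, had means of 4.32 ± 0.31 in pft1-1 at 23C, 6.43 ± 0.21 in pft1-1 at 16C, 4.74 ± 0.44 in WT at 23C and 5.20 ± 0.29 in WT at 16C (SD, n = 3 each). For CHX16, a cation/H+ exchanger and the fall nearest the threshold, the means were 3.21 ± 0.58 in pft1-1 at 23C, 4.72 ± 0.69 in pft1-1 at 16C, 4.46 ± 0.64 in WT at 23C and 4.54 ± 0.21 in WT at 16C (SD, n = 3 each). NANA, a chloroplast aspartic protease, scpl31, a serine carboxypeptidase-like protein, BGLU47, a beta-glucosidase, and RBL (REBELOTE), a gene known from floral meristem determinacy, had pft1-1 differences of -1.88, -1.69, -1.65 and -1.65 in that order. Their WT differences were -0.37, -0.31, -0.19 and -0.17.

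Among the falls with only a locus number, AT1G73600 differed by -3.19 in pft1-1 and 0.01 in WT, and AT2G43550 by -2.74 and -0.32. AT1G73600 had 7.06, 7.89 and 5.44 in pft1-1 at 23C and 11.03, 9.86 and 9.07 in pft1-1 at 16C, against 7.17, 9.56 and 9.69 in WT at 23C and 8.98, 8.95 and 8.45 in WT at 16C, so WT replicate A at 23C matched the pft1-1 arrays there while WT replicates B and C did not. AT2G43550 had 7.70, 9.06 and 6.62 in pft1-1 at 23C and 10.69, 10.45 and 10.46 in pft1-1 at 16C, against 8.73, 9.43 and 9.59 in WT at 23C and 9.39, 9.83 and 9.50 in WT at 16C, and its pft1-1 arrays at 16C were above all others. The remaining 5 of the 12 largest falls were AT2G15220 (-2.53, of s type), AT1G01390 (-2.49), AT3G15650 (-2.44), AT2G41090 (-2.42) and AT2G47010 (-2.15), with WT differences between -0.46 and -0.28.

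**Figure D3:**
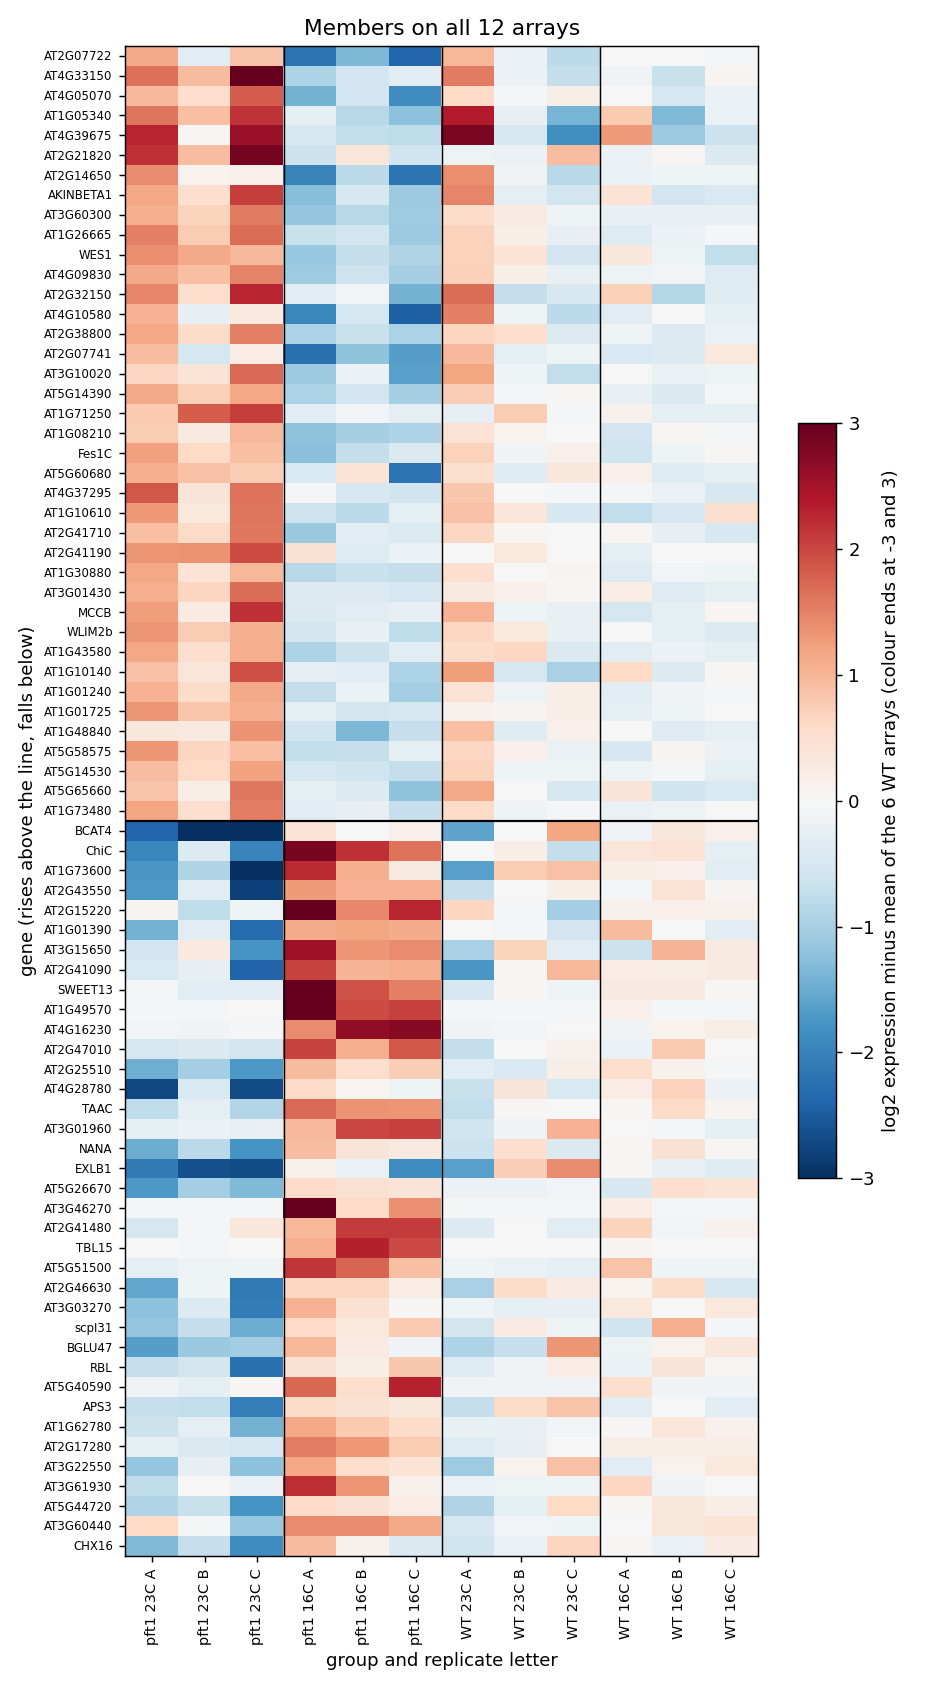
Each row is 1 member and each column 1 array, ordered pft1-1 at 23C, pft1-1 at 16C, WT at 23C and WT at 16C, coloured by the level minus the member's mean over the 6 WT arrays (log2 units, colours end at -3 and 3). The pft1-1 columns at 23C and 16C have opposite colours for most members, the WT columns are paler, and WT replicate A at 23C averages 7.75 over the rises, the highest of the WT arrays.

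At each temperature the WT mean lay on the inner side of the pft1-1 mean for most members. In 38 of the 39 rises the pft1-1 mean was above WT at 23C and below WT at 16C, and 30 of the 37 falls crossed WT in the other direction. For the rises pft1-1 minus WT had a median of 0.83 at 23C and -0.53 at 16C, and it was larger in size at 23C in 31 and at 16C in 8. The falls had medians of -0.85 at 23C and 1.01 at 16C, and they divided almost evenly, 18 with the larger difference at 23C and 19 at 16C. These values share their arrays with the rule and are not tested.

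**Figure D4:**
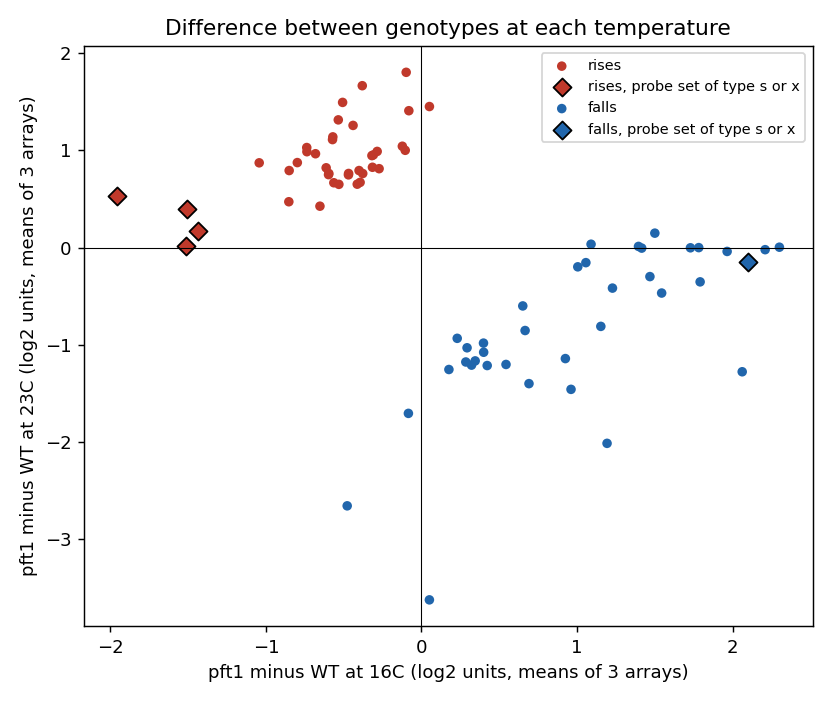
Each point is 1 member, with pft1-1 minus WT at 16C on the horizontal axis and pft1-1 minus WT at 23C on the vertical axis (log2 units, means of 3 arrays), and diamonds for probe sets of s or x type. In 38 of the 39 rises the point lies at upper left and in 30 of the 37 falls at lower right, and falls near the horizontal or the vertical line differ from WT mainly at 1 temperature.

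Separation of single arrays was less complete. For the rises all 3 pft1-1 arrays lay above all 3 WT arrays at 23C in 13 (4.2% of all probe sets) and below them at 16C in 17 (8.53%), with 4 showing both. The falls had all pft1-1 arrays below WT at 23C in 11 (3.75%) and above WT at 16C in 24 (4.31%), with 2 showing both. The share of all probe sets showing both was not counted. The same arrays entered the rule, so no excess is read from any of these counts. The WT arrays at 23C and 16C did not overlap in 11 members, 5 rises and 6 falls, beside 26% of all probe sets, and the WT limit of the rule favours such overlap.

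With limits chosen after the values were seen, 12 falls were high in pft1-1 at 16C alone, meaning that pft1-1 minus WT was under 0.2 in size at 23C and above 1 at 16C. They include AT4G16230, SWEET13, AT1G49570, AT2G15220, AT2G41480 and TBL15. Another 10 falls were low in pft1-1 at 23C alone, with a genotype difference under 0.5 in size at 16C and over 1 in size at 23C, among them BCAT4, EXLB1, RBL, BGLU47, NANA and CHX16. By limits of the same kind, 7 rises were high in pft1-1 at 23C alone, with LKR/SDH and MCCB among them, and 2 were low in pft1-1 at 16C alone, AT4G10580 and AT2G07741. In 7 falls and 1 rise (AT1G71250) some group mean was under 2.52, so part of their spread lies where signal and background cannot be told apart.

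The average of pft1-1 minus WT over both temperatures is no condition of the rule and was tested. For a member that is low in all groups but pft1-1 at 16C, though, it only spreads the 16C difference over both temperatures and is not independent of the choice. It had a median of 0.15 over the rises, positive in 31 and negative in 8, and 0.03 over the falls, positive in 19 and negative in 18, beside 0.00 over all probe sets. Among non-members that passed the pft1-1 part of the rule, its median was 0.16 for rises and -0.18 for falls. The rises' median is therefore not read as particular to the members. With letters A and B alone the average changed sign in some of the 12 largest rises, such as AKINBETA1 (0.15 to -0.28). In others, such as AT2G21820 (0.85 to 0.83), it did not. The average was called by limma for 0 of the 76 members, with 0.0572% of all probe sets called (13 in all). At an unadjusted p under 0.05 it was higher in pft1-1 for 4 rises and 12 falls, and lower for 1 rise and 3 falls, beside 3.17% of all probe sets higher and 3.07% lower. The rule favours probe sets with little spread among the pft1-1 arrays, and that spread also enters the test, so these unadjusted counts are not compared with the background further. The smallest adjusted p in limma was 0.0762, for AT1G49570, with an average difference of 1.15 (SE 0.16). This gene, AT4G16230, with an average of 1.09 (SE 0.21), and TBL15, with 0.89 (SE 0.17), were all low outside pft1-1 at 16C, so their averages are given as a description. The 3 were called without pft1-1 replicate A at 16C and were not called with letters A and B alone. Such calls rest on the pft1-1 arrays at 16C that made the 3 genes members, so they are not read as support.

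The replicate letters did not contribute equally. Over the rises the median pft1-1 difference was 1.99 for letter A, 1.08 for letter B and 2.33 for letter C, and the non-overlap that the rule requires makes every rise higher at 23C within each letter. In WT the medians were 0.87, 0.21 and 0.01. A WT difference of at least 1 in the direction of pft1-1 occurred in 15 rises for letter A (4.77% of all probe sets), 2 for letter B (4.13%) and 1 for letter C (3.22%). For 3 rises the letter C pair in WT differed by at least 1 the opposite way (4.38%). Among the 747 probe sets that passed the pft1-1 part of the rule, a WT difference of at least 1 the same way was commoner. Its share was 77.8% for letter A, 65.2% for letter B and 54.2% for letter C. The WT limit lowers the members' counts, so nothing is read from them.

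Over the falls the pft1-1 medians were -2.40 for letter A, -1.46 for letter B and -2.27 for letter C, with the sign within each letter again fixed by the rule. The WT medians were -0.64, -0.19 and -0.01. A WT difference of at least 1 in the direction of pft1-1 was found in 6 falls for letter A (6.56% of all probe sets), 0 for letter B (5.19%) and 1 for letter C (4.38%), and 5 falls differed by at least 1 the opposite way for letter C (3.22%). In WT, 16 rises and 13 falls had the sign of the pft1-1 difference in all 3 letters, and 0 members had the opposite sign in all 3. The share over all probe sets was not counted and the WT limit bears on these counts, so nothing is read from them.

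One WT array stood out among the members. The larger WT difference within letter A was also found over the 747 probe sets that passed the pft1-1 part of the rule. It is therefore not read as particular to the members. Averaged over the rises, the levels for replicates A, B and C were 8.11, 7.45 and 8.39 in pft1-1 at 23C and 6.09, 6.37 and 5.94 in pft1-1 at 16C, against 7.75, 6.90 and 6.63 in WT at 23C and 6.85, 6.61 and 6.72 in WT at 16C. WT replicate A at 23C thus exceeded pft1-1 replicate B at 23C. Over the falls the averages were 4.28, 4.66 and 3.80 in pft1-1 at 23C and 6.64, 6.20 and 6.10 in pft1-1 at 16C, against 4.65, 5.23 and 5.35 in WT at 23C and 5.30, 5.43 and 5.22 in WT at 16C. The same WT array was as low as pft1-1 replicate B. It was above the lowest pft1-1 array at 23C in 26 of the 39 rises, against 5 for WT replicate B and 1 for WT replicate C. In the falls it was below the highest pft1-1 array at 23C in 22 of 37, against 10 for replicate B and 14 for replicate C. Without it the rule found 83 rises and 59 falls, and without WT replicate C at 23C it found 17 and 29.

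**Figure D5:**
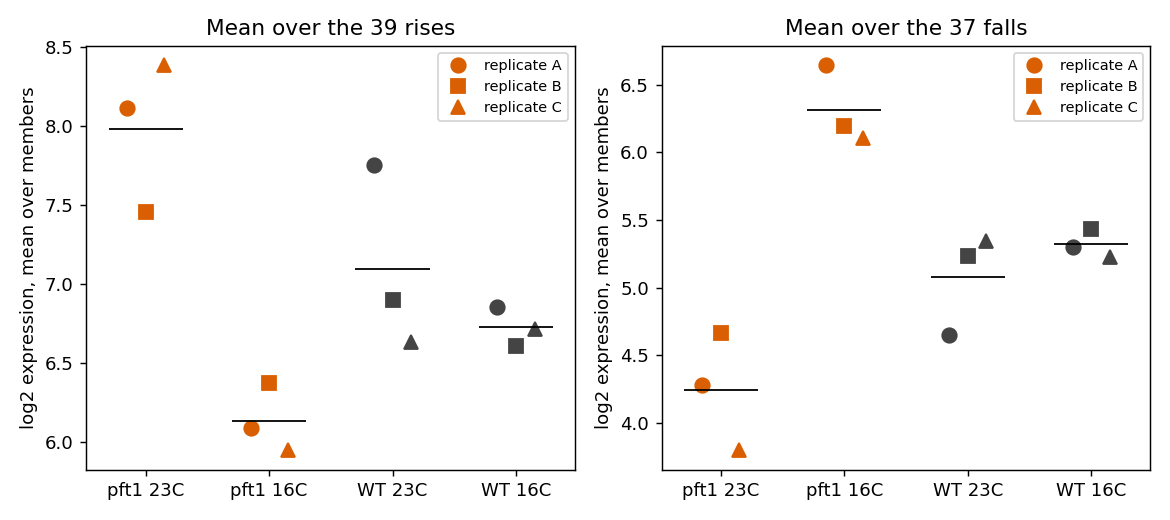
Mean level (log2 units) over the 39 rises and over the 37 falls on each of the 12 arrays, in the order pft1-1 at 23C, pft1-1 at 16C, WT at 23C and WT at 16C, with symbols shaped by replicate letter and a line at each group mean. WT replicate A at 23C reaches 7.75 over the rises and 4.65 over the falls, next to pft1-1 replicate B at 23C with 7.45 and 4.66.

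Choosing members on the arrays of 2 letters and reading them on the other gave the same measure in arrays that had no part in the choice. Letters B and C chose 75 rises, of which 26 are members. On letter A their median difference was 1.90 in pft1-1 and 1.23 in WT, and all 75 were higher at 23C in both genotypes. The 49 falls chosen with them had medians of -2.27 in pft1-1 and -0.89 in WT on letter A, with 48 and 45 of them lower at 23C. The small WT difference of the chosen letters was thus not met on letter A, where the WT median was beyond 0.5 in size for the rises and for the falls.

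Letters A and C chose 78 rises, which on letter B had medians of 0.79 in pft1-1 and 0.33 in WT, and 68 falls with medians of -0.83 and -0.20. Letters A and B chose 8 rises and 31 falls. On letter C those rises had medians of 2.36 in pft1-1 and 0.52 in WT, and those falls -1.49 and -0.18. Over all probe sets the corresponding medians lay between 0.00 and 0.06. The pft1-1 difference was beyond the WT difference in 56 of 75, 63 of 78 and 7 of 8 rises read on letters A, B and C, and in 43 of 49, 59 of 68 and 27 of 31 falls. The choosing letters and the letter read share no array, but these counts have no test and no comparable share beside them. Non-members that passed the pft1-1 part of the rule also had larger medians in pft1-1 than in WT. These were 2.01 against 1.18 for rises and -2.25 against -1.63 for falls. The counts are therefore not read as particular to the members.

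Letter C minus letters A and B, a contrast that the rule did not use, was called by limma for 0 of the 76 members, with 6.53% of all probe sets called. At an unadjusted p under 0.05 it passed for 1 rise and 2 falls, all lower on letter C, with 22.2% of all probe sets passing in either direction. The median was -0.06 over the rises and -0.18 over the falls, beside 0.01 over all probe sets. The rule's call for little spread among the pft1-1 arrays bears on both counts, which are therefore not read further. Without pft1-1 replicate A at 23C, 1 member was called, ChiC at -0.95.

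The threshold of 1.5 cuts a continuous range. Just inside it were the rises AT1G73480 (1.5), AT5G65660 (1.52) and AT5G14530 (1.52), and just outside it TOPP7 (1.47), AT5G35370 (1.45) and AT5G18340 (1.42). The falls just inside were CHX16 (-1.51), AT3G60440 (-1.53) and AT5G44720 (-1.54), and those just outside were AT1G13650 (-1.5, before rounding short of the threshold), AT5G52790 (-1.45) and AT5G14700 (-1.45).

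Of 219 genes on 18 lists of pathways and cell type markers, 33 had a named probe set, and BCAT4 was the only member among them. A listed gene is called measured here only if a probe set could be matched to it by name. The others may still be on the array, since 8730 probe sets match no gene and 503 match several. Besides, HSP26.5 (AT1G52560) and HSP23.5 (AT5G51440) carry only a locus number in the annotation and were not matched by name. Over the 33 measured genes the pft1-1 difference was called higher at 23C in 3 (8.41% of all probe sets) and lower in 13 (9.27%). The WT difference was called higher in 2 (1.74% of all probe sets) and lower in 3 (3.15%). Their median was -0.88 in pft1-1 and -0.27 in WT, beside 0.04 and 0.02 over all probe sets. On the glucosinolate list 3 of 22 genes were measured. Besides BCAT4, GSTU20, a glutathione transferase linked to aliphatic glucosinolates, had a difference of -3.69 in pft1-1 (limma adjusted p = 0.00754) and -0.87 in WT (limma adjusted p = 0.595), which is beyond the WT limit. UGT74B1, a glucosyltransferase of glucosinolate synthesis, had -0.87 in pft1-1 and 0.76 in WT, neither called.

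Other lists held genes with large differences in both genotypes that the WT limit keeps out. The cold-responsive list had 4 of 17 genes measured, with 3 called lower at 23C in pft1-1 (9.27% of all probe sets) and 1 in WT (3.15%). COR15A, a chloroplast cold-protection protein, differed by -3.38 in pft1-1 and -1.38 in WT, and LTI30, a dehydrin, by -3.40 and -3.39. The cell cycle list had 3 of 12 measured, all called lower in pft1-1 and 1 in WT, against the same shares. The flavonoid list had 2 of 11 measured, both called lower in pft1-1 and neither in WT, again against 9.27% and 3.15%, with DFR, an enzyme of anthocyanin synthesis, at -5.30 in pft1-1 and -2.50 in WT. For each of these the difference between the genotypes' temperature differences was not called. Of 7 measured markers of roots, root hairs, leaves and guard cells 1 was called in pft1-1 (17.7% of all probe sets) and 0 in WT (4.89%). This was PYK10, a root beta-glucosidase, with a difference of -0.93 in pft1-1 and -0.58 in WT. RCA, a leaf photosynthesis marker, had 0.15 in pft1-1 and 0.17 in WT. Larger differences that were not called stood in the root hair expansins EXPA7 (-1.77 in pft1-1 and -1.24 in WT) and EXPA18 (-1.92 and -1.73) and in FAMA (1.55 and 1.70), a regulator of guard cell formation. SPCH, a regulator of the stomatal lineage, had -0.88 in pft1-1 and -0.98 in WT, and MUTE, which acts after it, 0.04 and 0.01. The part of tissue proportions in the members' differences was not tested.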

How the data were processed

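The authors' deposited table gives 1 log2 value per probe set and array. RMA and affy, without versions, are the tools in the submitters' processing notes. The file holds 22810 probe sets, 64 of them controls that were set aside, with array medians of 5.07 to 5.25 and 0 pairs of identical arrays. Genes were named by the platform annotation and RefSeq (TAIR10.1), with 503 probe sets matching several genes and 8730 none. Coordinates and sequences are not used here.

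The other 22746 probe sets were fitted in limma 3.58.1 (R 4.3.3) with 4 group means on 12 arrays, adjusted by Benjamini-Hochberg, with no filter on low values. A letter C term was added for that contrast. The fit for the average genotype difference was also run on simulated data with independent noise on each array and no letter effect. The rule was not simulated, so nothing is read from that run for the members. Plots used matplotlib 3.10.9, and tables pandas 2.3.3.

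The members and lists were chosen with earlier results of these data known. Genes named are the 12 largest rises and falls, members on a list, the 3 on each side of the threshold, and members with a known role. Letters pair the arrays in part, since residuals of arrays sharing a letter correlated at 0.308, 0.330 and 0.430 for the average genotype difference. For the other contrasts the correlation ran from -0.10 (pft1-1 minus WT at 16C, letter B) to 0.53 (WT 23C minus 16C, letter C). The main fit had no replicate block, which was used only as an alternative. Alternatives were other normalisations, filters, thresholds, blocks, weights and omitted arrays.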

Additional observations from a re-analysis of the deposited data

How the results depend on the processing

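The number of members depended on the thresholds and on single arrays. With a pft1-1 threshold of 1.2 the rule found 100 rises and 71 falls, and with 2 it found 14 and 15. A WT limit of 0.3 gave 7 rises and 15 falls, and 1 gave 128 and 106. Letters A and B alone gave 8 rises and 31 falls, choosing without letter A 75 and 49, and choosing without letter B 78 and 68. Renewed quantile normalisation (39 and 35), centring on array medians (28 and 35) and the upper 60% of probe sets by mean (37 and 27) changed the counts by under 1.5 times. Which genes were members changed too. Of the 39 rises and 37 falls, 35 and 31 stayed members after quantile normalisation and 24 and 31 after centring. Letters A and B alone kept 4 and 17. Omitting WT replicate C at 23C kept 14 and 27, whereas omitting pft1-1 replicate B at 23C kept 39 and 37. Centring moved the 23C minus 16C difference by 0.10 in pft1-1 and 0.07 in WT. Leaving out 1 array gave 17 to 83 rises and 29 to 68 falls. Omitting pft1-1 replicate B at 23C gave 79 and 68, pft1-1 replicate C at 16C 45 and 56, WT replicate A at 23C 83 and 59, WT replicate B at 23C 25 and 31, and WT replicate C at 23C 17 and 29. AT2G07722, AT2G43550, AT1G49570, AT4G16230 and TBL15, named after their values were seen, were members under each of these 12 omissions. The average genotype difference was called for 13 probe sets and 0 members. It was called for 12 and 0 with the replicate block, which changed no call among the members, and for 8 and 0 both with letter C as a block and after quantile normalisation. Letters A and B alone gave 1 and 0, and an intensity trend gave 15 and 1 (AT1G49570). Omitting 1 array gave 3 to 22 calls over all probe sets and 0 to 3 among members, the 3 without pft1-1 replicate A at 16C. The members called in these fits were low outside pft1-1 at 16C, so their calls are not independent of the choice. The count over all probe sets was 22 without pft1-1 replicate A or C at 16C or WT replicate A at 23C, and 3 without pft1-1 replicate A at 23C, 7 without pft1-1 replicate C at 23C, 5 without WT replicate C at 23C, 6 without WT replicate A at 16C and 8 without WT replicate B or C at 16C. The temperature difference was called for 5167 probe sets in pft1-1 and 1859 in WT with the replicate block, against 4023 and 1112, and for 62 and 0 members in either fit. The difference of the temperature differences, whose alternatives were chosen after seeing the data, was called for 0 probe sets in the 8 fits other than omissions, the replicate block included. It was called for 0 to 6 with 1 array omitted (6 without pft1-1 replicate A at 16C or replicate B at 23C, 2 without pft1-1 replicate B or C at 16C, and 1 without pft1-1 replicate C at 23C or WT replicate C at 16C), and for 0 to 3 members. The rule chose on this difference, so calls among the members are not read as support. Letter C minus letters A and B was called for 1485 probe sets, and for 620 to 1809 with 1 array omitted (620 without WT replicate C at 23C), with 0 to 1 among members, the 1 without pft1-1 replicate A at 23C. The cause of these shifts was not tested. Signal limits the falls most, since 7 of 37 had a group mean under the lower quartile of all values, 2.52.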
